A study of Mus musculus
Mus spretus with 18 samples.

Results

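Embryonic stem cells (ESC) of an F1 hybrid carry one genome copy from C57BL/6J, the common laboratory strain, and one from SPRET/EiJ, an inbred line of Mus spretus, so that both alleles of a gene are spliced in the same nucleus. The data described here are the junction reads of each allele over skipped exon (SE) events in ESC. Autosomal events were kept if each allele had 20 reads or more in both clones, which gave 31421 of the 41829 events in the ESC table, covering 27095 alternative exons of 7888 genes. The study compared F1 hybrids (C57BL/6J mother, SPRET/EiJ father) in ESC, in 6 organs of mice aged 8 weeks and in fibroblasts treated for 4 h, with 2 replicates each. The 2 ESC replicates were independent clones derived from F1 hybrids and grown without added treatment in serum-free N2B27 medium with LIF and the inhibitor pair known as 2i, a medium that holds mouse ESC in the naive state. The fibroblasts used for comparison had received DMSO only. No parental ESC were analysed here.

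An SE event is an exon that is either spliced into the mRNA between its neighbours or left out with both flanking introns. The percent spliced in (PSI, given here from 0 to 1) is the share of transcripts that include the exon, computed from inclusion and skipping junction reads after division by the effective length of each form. Both alleles of a hybrid cell meet the same splicing proteins. A true difference in PSI between them therefore reflects differences carried on the chromosomes themselves, which geneticists call cis differences. A measured difference can also come from reads that are assigned to an allele wrongly or only in part. All differences below are the PSI of C57BL/6J minus that of SPRET/EiJ, so a positive value means higher inclusion on C57BL/6J.

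The summed allelic junction reads were 17414665 for C57BL/6J and 17653344 for SPRET/EiJ in clone 1, and 19864626 and 20798567 in clone 2, so that C57BL/6J gave 49.7% and 48.9% of them. Naive pluripotency genes marked both clones: none of the 25 listed was below 1 TPM (transcripts scaled for length and depth), and their sum was 13344 TPM in clone 1 and 14411 TPM in clone 2. Pou5f1, the core pluripotency factor, stood at 1146 and 1261 TPM. Among 15 fibroblast markers, which would reveal feeder cells, the sum was 1176 and 970 TPM, of which Fn1 alone gave 861 and 800 TPM and Vim 175 and 114 TPM. In that list 4 genes in clone 1 and 8 in clone 2 were below 1 TPM. Dcn, Lum, Postn and Twist2 were below 1 TPM in both, while Col1a1 stood at 19.6 and 4.77, Col5a1 at 37.6 and 24.2, Thy1 at 17.2 and 11.2 and Acta2 at 25.6 and 0.365 TPM. The 10 primitive endoderm markers summed to 325 and 92 TPM, mostly through the collagens Col4a1 (174 and 28.7 TPM) and Col4a2 (107 and 17.9 TPM). Gata6 (5.68 and 1.475 TPM) and Sox7 (0.735 and 0.391 TPM) were also higher in clone 1. Gata4 (3.52 and 3.43 TPM), Sox17 (1.16 and 1.34 TPM), Pdgfra (2.12 and 2.20 TPM) and Foxa2 (0.226 and 0.236 TPM) were alike in the clones. Dab2 was at 4.93 and 5.49 TPM and Lama1 at 24.5 and 30.8 TPM. T, the mesoderm factor, was at 0.602 and 21.0 TPM. In such bulk libraries fewer cells of a type and less RNA per cell cannot be told apart.

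Of the 31421 events, 375 were called as different between the alleles (1.19%), at an adjusted p under 0.05 with the clone as a block and a mean difference of at least 0.1. They lay in 365 exons of 305 genes. The PSI from allelic reads lay within 0.1 of that from all reads in 342 of the 375, and in 97.3% of all tested events. Inclusion was higher on C57BL/6J in 217 events (0.691% of those tested) and higher on SPRET/EiJ in 158 (0.503%), so that C57BL/6J had the higher inclusion in 57.9% of the called events (exact binomial 95% interval from 52.7% to 62.9%, which treats overlapping events as independent). The direction was the same in both clones in 367 of the 375, and 300 reached 0.1 in the same direction in each clone. The calls were made from these same clones, so such agreement is largely set by the choice. Among all tested events, with no test, 887 (2.82%) reached 0.1 in the same direction in each clone and 125 in opposite directions. Without the block 7 events were called, 6 of them higher on C57BL/6J. The count also rests on which events set the prior of the dispersion: a first form of the prior, which let in events with an empty cell, called 0 events, with 938 at an unadjusted p under 0.05 against 3114 in the form used.

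The call rests on how the alleles differed within a clone, because the clones themselves differed in splicing. Among the 6098 tested events that were not near 0 or near 1 in all 4 values, the median absolute difference between alleles was 0.0688 in clone 1 and 0.0875 in clone 2. The median absolute difference between clones was of the same size, at 0.0792 on the C57BL/6J allele and 0.0766 on the SPRET/EiJ allele. The clone difference on one allele correlated with that on the other with r = 0.447 across these events, and the allelic difference in one clone with that in the other with r = 0.568; events of a gene share reads, and both values are descriptions. In the called events, chosen for their difference, the alleles differed by a median of 0.266 and 0.276 in the clones and the clones by 0.0622 and 0.0350.

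**Figure D1:**
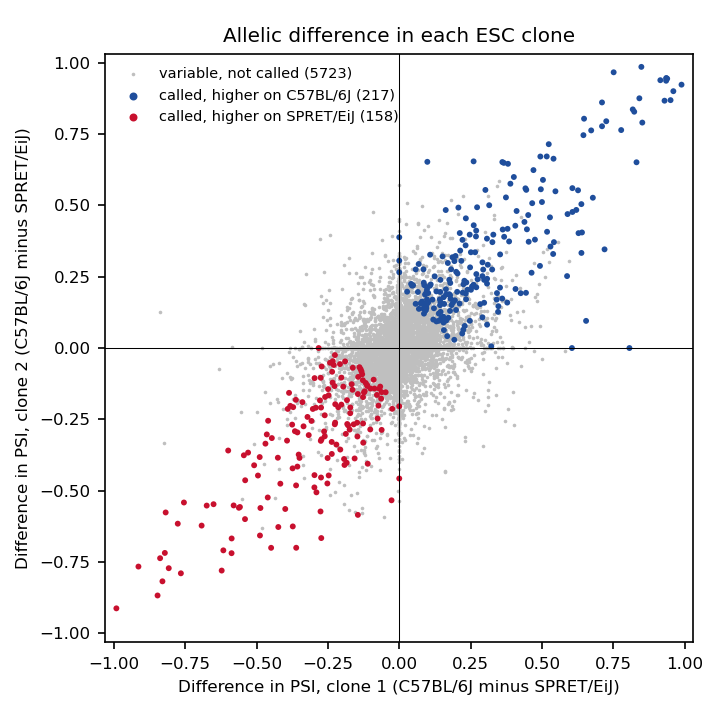
Difference in PSI (C57BL/6J minus SPRET/EiJ) in clone 1 on the horizontal axis and in clone 2 on the vertical axis, 1 point per event. The 217 called events higher on C57BL/6J (blue) and the 158 higher on SPRET/EiJ (red) stretch along the diagonal to near 1 and near −1, while the 5723 variable events that were not called (grey) surround 0.

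Events with an intermediate mean PSI over the 4 values were called most often. This mean takes in both alleles, so an exon near 1 on one allele and near 0 on the other also counts as intermediate. The pattern is therefore partly set by the measure. Calls were made in 64 of 457 events with a mean PSI from 0.1 to 0.3, and the called share was 17.6% from 0.3 to 0.5, 12.2% from 0.5 to 0.7 and 7.94% from 0.7 to 0.9. It fell to 0.234% of the 27390 events at 0.9 or above, where a difference of 0.1 leaves little room. Many called exons were fixed on one allele and variable on the other: in 152 of 375 events one allele had a PSI of at least 0.95 in both clones, in 82 events one allele had at most 0.05, and in 80 events all 4 values lay between these limits. The called exons resembled the other variable exons in length, with a median of 107 bp against 112 bp, and in the share whose length is a multiple of 3, at 44.5% (interval 39.4% to 49.7%) against 43.4%. Micro-exons of 30 bp or less made up 1.87% and 2.15% of the respective events.

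Near-complete switches were rare. In 9 of the 375 called events one allele had a PSI of at least 0.9 and the other of at most 0.1 in both clones, and these lay in 5 genes: Mrps17, Parpbp, Pkp4, Slc9b1 and Tor1aip1. For Parpbp the PSI from allelic reads lay more than 0.1 from that of all reads in at least 1 clone, so its allelic values are uncertain. Of the 305 genes with a call, 253 had 1 called exon and 52 had several. In 41 of those 52 all called exons went the same way, and in 11 they went in both. The Mrps17 exon was annotated with several ends, which gave 5 called exons with the same start.

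The 28 exons with the largest differences agreeing in both clones, 14 in each direction, had mean differences from 0.524 to 0.956 in size. Each is described by 1 event, although an exon can have several tested events. The exon had 1 of 2 tested events called in Slc9b1 and Mcfd2, 1 of 3 in Tmem234 and Alg6, 1 of 4 in Rcbtb1 and 3 of 4 in Ecsit. Those higher on C57BL/6J are described first, with PSI values in the order clone 1 and clone 2.

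Mrps17 encodes a protein of the small mitochondrial ribosomal subunit. Its 80-bp exon (chr5:129715684-129715763, mm10) had a PSI of 0.972 and 0.967 on C57BL/6J and of 0.0336 and 0.0232 on SPRET/EiJ, from 231 to 537 reads per value. The alleles were thus almost fully exchanged, with a difference of 0.941 ± 0.00357 (SD, n = 2 clones). The quasi-binomial test with limma moderation gave an adjusted p of 1.51e-07.

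Pkp4, a plakophilin of cell junctions, showed the largest mean difference, 0.956 ± 0.0467 (adjusted p by the same test 1.92e-13). Its 132-bp exon (chr2:59305066-59305197) was included at 0.992 and 0.923 on C57BL/6J, while SPRET/EiJ gave 0.00290 and 0. In clone 2 no inclusion read was seen among 288 SPRET/EiJ reads, which allows up to 1.04% of reads. Another exon of the gene, 113 bp long, was also called, in the opposite direction.

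Zscan21, a zinc finger gene, mostly skipped its 85-bp exon (chr5:138117836-138117920) on SPRET/EiJ, with a PSI of 0.0705 and 0.133. On C57BL/6J all 237 and 184 reads supported inclusion, which allows skipping in up to 1.27% and 1.63% of reads. Trpc2, which encodes a cation channel known from vomeronasal neurons, had values of 0.848 and 0.990 on C57BL/6J against 0 of 115 reads and 0.00498 on SPRET/EiJ for its 95-bp exon (chr7:102069897-102069991), where 0 of 115 allows 2.61%. The alleles did not overlap in either gene, and their differences were 0.898 ± 0.0444 and 0.917 ± 0.0968.

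Mtif2 encodes the mitochondrial translation initiation factor 2. Its 151-bp exon (chr11:29526693-29526843) had a PSI of 0.838 and 0.828 on C57BL/6J and 0.0145 and 0 on SPRET/EiJ, where 0 of 68 reads allows 4.41%. Cdc26, a subunit of the anaphase-promoting complex that drives exit from mitosis, included its 97-bp exon (chr4:62404456-62404552) at 0.922 and 0.95 on C57BL/6J and at 0.0702 and 0.160 on SPRET/EiJ. The clones lay close together in Mtif2, whereas in Cdc26 the SPRET/EiJ values of the clones were further apart. Their adjusted p-values were 9.16e-05 and 4.55e-07.

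Pex2 is a ubiquitin ligase component of the peroxisomal import machinery. On C57BL/6J its 64-bp exon (chr3:5562669-5562732) had a PSI of 0.710 and 0.777, and on SPRET/EiJ no inclusion read was found among 45 and 26 reads, which allows 6.67% and 11.5%. Such floors cover counting error only. The exon thus reached intermediate inclusion on one allele and was not detected on the other.

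The other 7 of this direction were Zfp820 (zinc finger protein), Slc9b1 (sodium-hydrogen exchanger family), Pld3 (lysosomal nuclease of the phospholipase D family), Osbpl3 (oxysterol-binding protein family), Mthfsd, Ifi27 (interferon-induced) and Ecsit (mitochondrial complex I assembly). Their differences ranged from 0.718 in Ifi27 to 0.858 in Zfp820. Zfp820 had the fewest reads of all 28, down to 24 on SPRET/EiJ in clone 1.

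Higher inclusion on SPRET/EiJ was led by Tor1aip1, which encodes LAP1, an inner nuclear membrane protein that activates torsin. The 56-bp exon (chr1:156019968-156020023) had a PSI of 0.00880 and 0.00531 on C57BL/6J and of 1 and 0.917 on SPRET/EiJ. The difference was −0.952 ± 0.0559 (adjusted p = 2.46e-05), and all 77 SPRET/EiJ reads of clone 1 supported inclusion, which allows skipping in up to 3.90%.

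Apobec3 encodes a cytidine deaminase that restricts retroviruses. For its 99-bp exon (chr15:79899020-79899118), C57BL/6J gave 0 inclusion reads of 466 in clone 1, which allows 0.644%, and 1 of 521 in clone 2. SPRET/EiJ had a PSI of 0.847 and 0.868 from 784 and 1160 reads, and the difference was −0.857 ± 0.0142 with an adjusted p of 2.32e-08. The exon was thus near absent from one allele and the major form on the other.

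Atg7, the E1-like enzyme of autophagosome formation, had a PSI of 0.0435 and 0.140 on C57BL/6J and 0.957 and 0.906 on SPRET/EiJ for its 53-bp exon (chr6:114672791-114672843). Mutyh, the DNA glycosylase that removes adenine paired with oxidised guanine, included its 93-bp exon (chr4:116810849-116810941) at 0.138 and 0.187 on C57BL/6J and at 0.830 and 0.809 on SPRET/EiJ. Alg6, a glucosyltransferase of N-glycan synthesis, gave 0.224 and 0.385 on C57BL/6J, while all 63 and 114 SPRET/EiJ reads supported inclusion of its 90-bp exon (chr4:99738124-99738213), which allows skipping in 4.76% and 2.63%. In each of these genes both C57BL/6J values lay far under both SPRET/EiJ values.

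Mcfd2, which helps export coagulation factors from the endoplasmic reticulum, varied most between clones. Its 132-bp exon (chr17:87258750-87258881) had a PSI of 0.178 and 0.418 on C57BL/6J against 0.996 and 0.994 on SPRET/EiJ, a difference of −0.697 ± 0.171. A pair of genes known from early embryos and germ cells were also in this group. Pramel6, a PRAME family member linked to naive pluripotency, included its 238-bp exon (chr2:87506900-87507137) at 0.264 and 0.288 on C57BL/6J and at 0.822 and 0.845 on SPRET/EiJ. Triml2, a tripartite motif gene, had 0.174 and 0.350 against 0.825 and 0.897 for its 23-bp exon (chr8:43190069-43190091). Pramel6 had the most even clones of all 28, with an SD of 0.000914.

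The 6 remaining exons, in Zfp239, Tmem234, Rcbtb1, Gpank1, Zbtb32 and Thyn1, differed by 0.524 (Thyn1) to 0.770 (Zfp239) in size. In Tmem234 the 219-bp exon was higher on SPRET/EiJ, and an exon further downstream was called with higher inclusion on C57BL/6J. Over all 28 exons the largest adjusted p was 0.00370, and 11 had a length that is a multiple of 3.

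**Figure D2:**
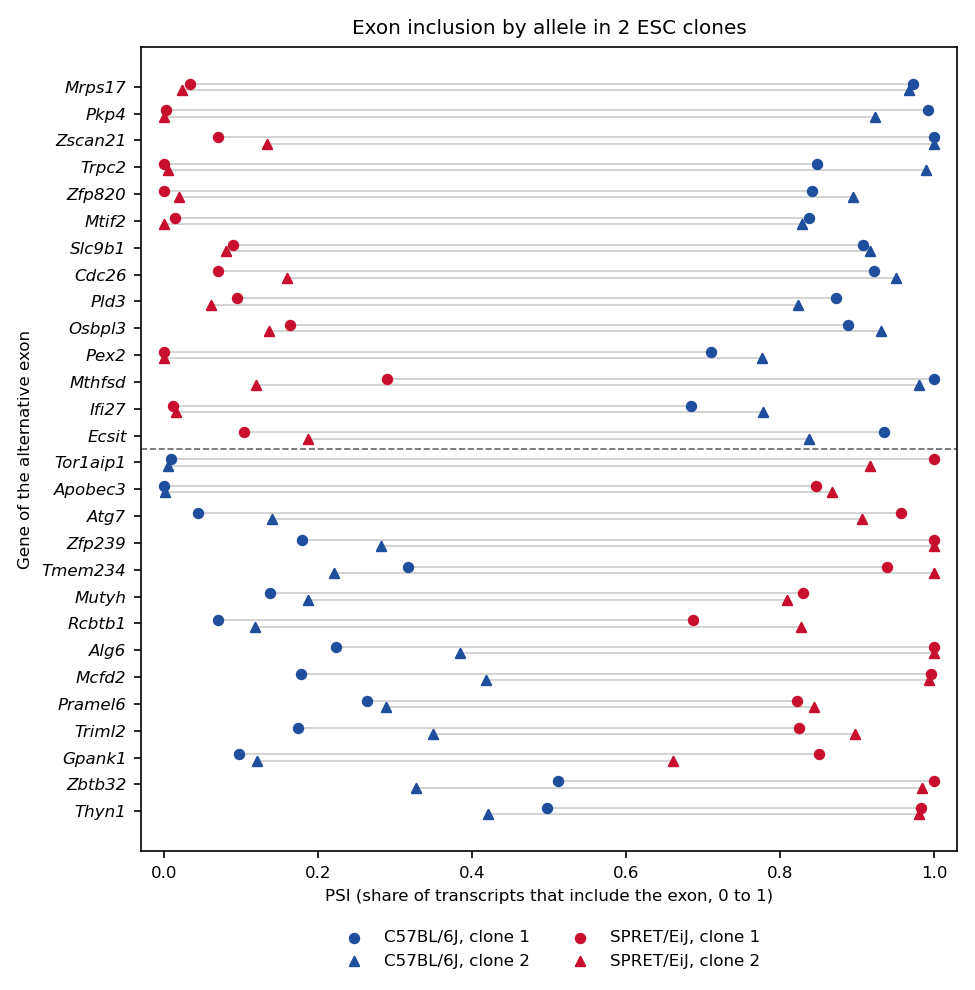
PSI of the 28 named exons on a scale from 0 to 1, with C57BL/6J in blue, SPRET/EiJ in red, circles for clone 1 and triangles for clone 2, and grey lines joining the alleles of a clone. The first 14 rows are higher on C57BL/6J and the last 14 on SPRET/EiJ. In no row do the alleles overlap, but the rows were chosen for their difference. The alleles did not overlap in 95.7% of the called events and in 20.4% of all tested events.

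These allelic differences could be followed in libraries that had no part in the calls. The organs and fibroblasts were read with the same rule of 20 reads on each allele in each library. Of the 375 events, 60 had enough reads in no organ and 169 had them in all 6. The mean difference had the same sign as in ESC in 233 of 241 events in cortex, 229 of 240 in heart, 265 of 267 in kidney, 265 of 268 in lung, 266 of 272 in spleen, 191 of 202 in liver and 280 of 290 in DMSO fibroblasts. Among the variable events that were not called in ESC the same sign was seen in 68.0% (heart) to 71.9% (kidney). A difference of at least 0.1 against the ESC direction was found in 2 events in heart, 1 in liver and 0 in each of the other samples.

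The differences were smaller outside ESC, where they had not been selected. In cortex the median difference along the ESC direction was 0.143 against 0.260 in ESC for the same 241 events, and in spleen it was 0.193 against 0.267. Of the 169 events read in all organs, 149 kept their sign in all 6 and 73 were also at 0.1 or more in all 6. For the 28 named exons, all 115 values that could be read in an organ had the ESC direction and a size of at least 0.1.

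In Tor1aip1 the difference ranged from −0.977 in spleen to −0.989 in lung over the organs. Mrps17 ranged from 0.912 in lung to 0.960 in kidney. Pex2 was the other extreme: its C57BL/6J exon stood at 0.284 and 0.295 in cortex and 0.198 and 0.207 in heart, so that the difference was 0.290 and 0.203 there against 0.744 ± 0.0471 in ESC. SPRET/EiJ inclusion of the Pex2 exon was 0 in both ESC clones and in both cortex libraries. The interaction test compares ratios of inclusion to skipping, which have no finite value on an allele without inclusion. It therefore cannot say whether the Pex2 difference changed between ESC and cortex. Slc9b1, Pramel6 and Triml2 had enough reads in none of the organs or the fibroblasts, and Zfp820 only in fibroblasts.

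**Figure D3:**
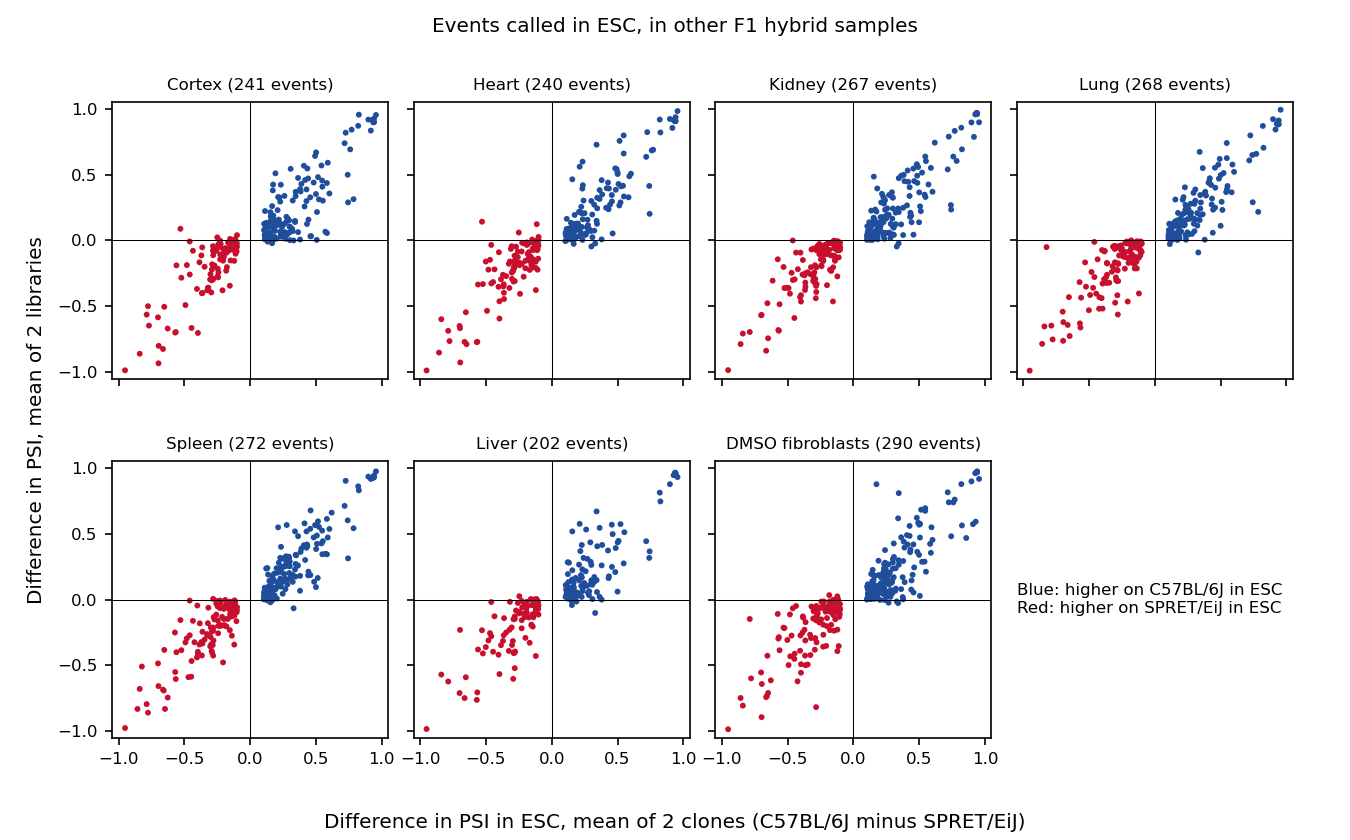
Mean difference in PSI (C57BL/6J minus SPRET/EiJ) of the events called in ESC, with ESC on the horizontal axis and 1 other sample type on the vertical axis of each panel. Nearly all points lie in the lower left and upper right parts, for example 265 of 267 in kidney, and many lie nearer to 0 than in ESC.

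Whether the allelic difference itself changed between ESC and another sample type was tested as an interaction of allele and sample type, with the library as a block. Against cortex, 22 of 12263 events were called (0.179%), and against DMSO fibroblasts 23 of 14441 (0.159%). In the fibroblast fit limma gave the prior an infinite weight, so that no call there uses the event's own spread. At an unadjusted p under 0.05 there were 601 and 740. Of the ESC events called above, 11 of 241 and 11 of 290 were among them. In fits without 1 library, the other library of that sample type is assumed to vary like the rest. Against cortex, 0 events were called without ESC clone 1 and 0 without ESC clone 2, and 8 and 3 without either cortex library. Against fibroblasts, 16 and 6 were called without ESC clone 1 or clone 2, and 1 without either fibroblast library. Without the library block, 0 were called in both.

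Fn1 and Scarb1 were called in both tests. Fn1 encodes fibronectin, a matrix glycoprotein whose alternative exons are markers of embryonic and wound tissue. In ESC its 270-bp exon (chr1:71603660-71603929) had a PSI of 0.795 and 0.918 on C57BL/6J and 0.428 and 0.528 on SPRET/EiJ, from 3040 to 3869 reads per value. These values are from 1 of 2 tested events of the exon, and the other was not called between the alleles in ESC. Both alleles were low and alike in cortex, with 0.235 and 0.179 on C57BL/6J and 0.249 and 0.151 on SPRET/EiJ. In DMSO fibroblasts all 4 values lay between 0.198 and 0.206. The allelic difference was 0.379 ± 0.0159 in ESC, 0.00706 in cortex and 0.00158 in fibroblasts, and the adjusted p of the interaction was 0.000608 against cortex and 1.64e-83 against fibroblasts, where limma gave the prior an infinite weight, so that this p uses none of the event's own spread. The fibroblast marker list to which Fn1 belongs summed to 1176 and 970 TPM in the ESC clones, with 4 and 8 of its 15 genes below 1 TPM, and the part of other cells in the Fn1 values was not tested.

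Scarb1, the HDL receptor, was named here after its values were seen. Its 129-bp exon (chr5:125281105-125281233) was included at 0.193 and 0.159 on C57BL/6J and 0.682 and 0.541 on SPRET/EiJ in ESC. In cortex the values were 0.207 and 0.236 against 0.375 and 0.223, which overlap. The fibroblasts had 0.881 and 0.897 against 0.932 and 0.944. The adjusted p of the interaction test was 0.00633 against cortex and 0.00200 against fibroblasts, where it again uses none of the event's own spread.

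Other exons were chosen from the interaction calls in the same way. Atp6v0a1, a subunit of the proton pump of acidic organelles, included its 18-bp micro-exon (from chr11 position 101049459) at 0.0416 and 0.140 on C57BL/6J and 0.586 and 0.516 on SPRET/EiJ in ESC, and at 0.935 to 0.951 on both alleles in cortex (adjusted p = 0.00253). Agrn, the matrix proteoglycan agrin of the synapse, went the other way: its 33-bp exon was below 0.03 on both alleles in ESC and at 0.333 and 0.351 on C57BL/6J against 0.100 and 0.0866 on SPRET/EiJ in cortex (adjusted p = 0.00712).

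The gene lists chosen for ESC and for splicing had few calls, to be read against the 1.19% of all events. Of 123 tested events in 24 genes of hnRNP proteins, which bind nascent RNA and often repress exons, 6 were called (4.88%), 1 higher on C57BL/6J and 5 on SPRET/EiJ, in Hnrnpc, Hnrnpf, Hnrnpk, Hnrnpr and Syncrip. Their median absolute difference was 0.00474 against 0.0106 over all events. No event was called among 47 of SR proteins and Tra2, 102 of other regulators or 100 of the core spliceosome. The exons given below for Hnrnpr, Rnps1, Tdgf1 and Tpm1 had 1 of 2 tested events called.

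Hnrnpr had a 169-bp exon (chr4:136314087-136314255) at 0.870 and 0.849 on C57BL/6J and 0.983 and 0.979 on SPRET/EiJ (difference −0.121 ± 0.0117, adjusted p = 0.0484). Hnrnpf and Hnrnpr were the called hnRNP genes whose allelic reads gave nearly the PSI of all reads. For the other 3 the reads assigned to an allele were not representative. Syncrip differed by −0.777, but its PSI was 0.788 and 0.745 from allelic reads against 0.932 and 0.887 from all reads. Hnrnpc differed by −0.627, with 0.104 and 0.129 against 0.545 and 0.633. In Hnrnpk the 63-bp exon (chr13:58401110-58401172) had 0.0469 and 0.0784 on C57BL/6J and 0.226 and 0.349 on SPRET/EiJ, and a PSI of 0.105 and 0.181 from allelic reads against 0.0524 and 0.0795 from all reads. Several hnRNP genes have near-identical processed copies elsewhere in the genome, so their allelic values are uncertain.

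Dnmt3b, the de novo DNA methyltransferase, was the only gene called in the list of DNA methylation and chromatin (2 of 368 events, 0.543%). It was also the only gene of the primed epiblast list with tested events, of which 2 of 14 were called. Its 115-bp exon (chr2:153650785-153650899) had a PSI of 0.168 and 0.230 on C57BL/6J and 0.507 and 0.419 on SPRET/EiJ, with an adjusted p of 0.0341. Its 126-bp exon (chr2:153665252-153665377) stood at 0.852 and 0.735 against 1.000 and 0.997. Both exons were thus included more on SPRET/EiJ.

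In the naive pluripotency list, 1 of 65 events was called (1.54%). This was an exon of Tdgf1, the Nodal co-receptor Cripto, of 102 bp (chr9:110943152-110943253), at 0.996 and 0.993 on C57BL/6J and 0.840 and 0.930 on SPRET/EiJ, from 3109 to 6952 reads per value. The SPRET/EiJ values differed more from each other than the alleles did in clone 2. The gene has processed copies in the genome, so its allelic values are uncertain.

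Mdm2, the ubiquitin ligase of p53, accounted for both calls among 334 events of the cell cycle and DNA repair list (0.599%). Its 131-bp exon (chr10:117709654-117709784) had 0.758 and 0.612 on C57BL/6J against 0.995 and 0.983 on SPRET/EiJ. Rnps1, an exon junction factor, gave both calls among 58 events of the nonsense-mediated decay list (3.45%), and its 181-bp exon (chr17:24418038-24418218) stood at 0.551 and 0.454 against 0.859 and 0.709. In both genes C57BL/6J had the lower values.

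The cytoskeleton and trafficking list had 4 calls in 276 events (1.45%), in Fn1, Add3, Ctnnd1 and Tpm1. Add3, a membrane skeleton adducin, included its 96-bp exon (chr19:53244310-53244405) at 0.467 and 0.790 on C57BL/6J and 0.193 and 0.549 on SPRET/EiJ. Tpm1, a tropomyosin, gave 0.747 and 0.974 against 0.527 and 0.923. In both genes the clones differed by more than the alleles and the groups overlapped, while the alleles kept their order within each clone. Ctnnd1, the p120 catenin of adherens junctions, had 0.0432 and 0.116 against 0.294 and 0.501, with no overlap. No event was called in the primitive endoderm list (22 events) or the imprinted lists (39 and 43 events), and no neural marker had a tested event.

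The summed junction reads of each gene also give the balance of the alleles in its mRNA. A read is counted in each overlapping event of a gene, so the sums are not molecules. Of 8471 autosomal genes with at least 50 summed reads in each clone, 1120 were called as unequal (13.2%) at an adjusted p under 0.05 and a ratio of at least 2-fold. C57BL/6J gave more reads in 529 (6.24%) and SPRET/EiJ in 591 (6.98%). All 1120 had the same direction in both clones, which is largely set by the choice of calls. Among all tested genes, 9 were at 2-fold or more in opposite directions in the clones. Without the clone block 166 were called. The median gene had 50.5% of its reads from C57BL/6J in clone 1 and 50% in clone 2, with quartiles of 44.3% and 56.9% in clone 1, and 4741 genes lay within 1.5-fold in both clones. The log2 ratios of the clones correlated with r = 0.815 across genes.

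In 141 genes at least 90% of reads came from one allele in both clones, C57BL/6J in 61 and SPRET/EiJ in 80. Spp1, the secreted phosphoprotein osteopontin, led those from C57BL/6J with 17223 reads against 81 in clone 1 and 6174 against 35 in clone 2, a log2 ratio of 7.57 ± 0.17 (SD of the clones). Its C57BL/6J share was 96.8% or more in every other library in which it could be read. H2-Eb1, a class II gene of the major histocompatibility complex, had 2191 against 17 and 2024 against 17 reads, while the share from C57BL/6J was 68.8% to 71.7% in lung and spleen. H2-K1, a class I gene, had 309 against 2 reads in clone 1 and 103 against 0 in clone 2, and shares from 36.1% to 82.4% in the organs. The 0 of 103 reads allow up to 2.91%. Genes of this complex have close relatives in the genome, which makes their allelic counts uncertain. Cnga3, Pgpep1l, Bglap3, Dynlt1a and the pseudogene H2-M6-ps made up the rest of the 8 highest.

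On the SPRET/EiJ side Lrrc23, a leucine-rich repeat protein of sperm flagella, had 6 reads from C57BL/6J against 4606 in clone 1 and 6 against 4088 in clone 2. Dnah9, a dynein heavy chain of cilia, had 14 against 2815 and 17 against 4410, and Pygl, the liver glycogen phosphorylase, 51 against 6483 and 117 against 15051. Outside ESC these genes were shared more evenly, with 39.0% to 55.2% from C57BL/6J for Lrrc23 in cortex and lung, 56.0% to 60.4% for Dnah9 there, and 40.1% to 72.2% for Pygl in kidney, lung, spleen and liver. Whether the balance differs between ESC and these organs was not tested.

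Rpl28, Rps6 and Ppia, a pair of ribosomal proteins and cyclophilin A, were also among the 8 highest, with 0.673% to 0.976% of reads from C57BL/6J. Rpl28 and Ppia showed the same side in every organ, at 0.377% to 1.47% of reads from C57BL/6J. All 3 have many near-identical processed copies in the genome, and their balance is uncertain for that reason. The others were Cd207 and Ptp4a1.

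Among naive pluripotency genes 5 of 18 were called for balance (27.8%), against 13.2% of all genes. Dppa3 (Stella), which shields the maternal genome from demethylation, had 304 reads from C57BL/6J against 10332 in clone 1 and 1514 against 21981 in clone 2, a log2 ratio of −4.49 ± 0.89. Zfp42 (Rex1) had 14.5% and 15.1% and the germ cell factor Prdm14 11.5% and 27.4% of reads from C57BL/6J. Tcl1, a co-activator of Akt, leaned the other way with 90% and 92.4%, as did Tdh, the threonine dehydrogenase of mouse ESC, with 86.2% and 74.3%. The median log2 ratio of the 18 genes was −0.20.

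Imprinted genes, which are expressed from one parental copy through methylation marks set in the germ line, were read from both alleles in ESC. Of 10 tested genes of the paternal list, 9 had between 25% and 75% of reads from C57BL/6J, the maternal allele, in both clones, and so had all 10 of the maternal list. This range, which allows a 3-fold skew, also held 88.7% of all tested genes. Of the 20 imprinted genes 4 were called as unequal (20%), against 13.2% of all genes. In the organs 5 of 7 genes of the paternal list had at most 10% from C57BL/6J in every library in which they could be read, and 3 of 10 of the maternal list had at least 90%. Cd81, Copg2, Inpp5f, Phactr2 and Ppp1r9a were read from both alleles in the organs as well. So were H13, at 53.1% and 54.6% from C57BL/6J in spleen and up to 90.3% in cortex, and Impact, at 12.9% to 41.4%. Snrpn, expressed from the paternal copy, had 4348 reads from C57BL/6J against 4437 in clone 1 and 5560 against 5399 in clone 2, and at most 0.105% from C57BL/6J in the organs in which it could be read. Meg3, a maternally expressed long noncoding RNA, had 34.9% and 34.2% in ESC and at least 98.9% in the organs. Igf2r, the maternally expressed receptor that clears IGF2, had 44.2% and 47.0% in ESC, and 54.4% to 58.1% in cortex against 93.8% to 98.8% in heart, kidney and lung.

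The imprinted genes called in ESC were Peg3 with 74.5% and 72.9% from C57BL/6J, Inpp5f with 26.7% and 6.15%, Grb10 with 37.1% and 29.5%, and Rian with 29.4% and 27.0%. Peg3, a paternally expressed zinc finger gene, thus leaned to the maternal allele in ESC, and was at 0.374% and 0.354% in cortex. Grb10, an adaptor of insulin signalling, was at 3.92% and 4.60% in cortex and above 99% in heart, kidney, lung and spleen. Rian, from the Meg3 domain, was above 98% in the organs. No test between ESC and organs was run for balance.

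**Figure D4:**
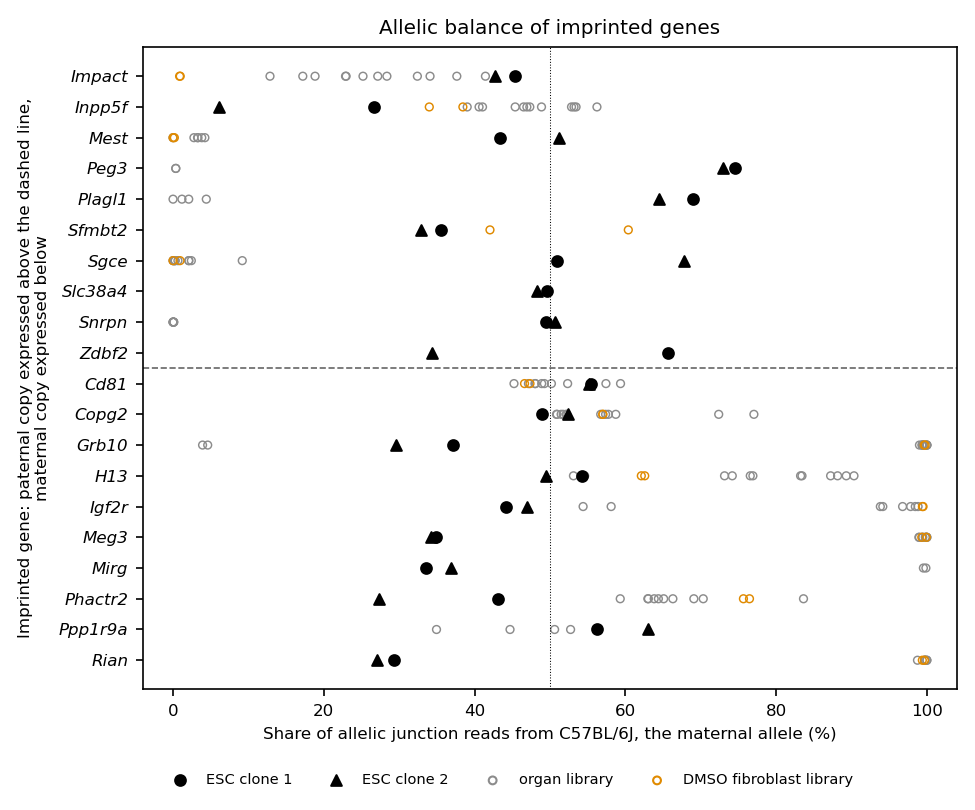
Share of allelic junction reads from C57BL/6J, the maternal allele, in percent, for the 20 tested imprinted genes, with ESC clones as filled black marks, organ libraries as open grey circles and DMSO fibroblast libraries as open orange circles. Snrpn, Meg3 and Igf2r lie near the middle in ESC, while the organ values of Snrpn and Meg3 lie at the left and right edge.

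Genes with a called splicing event were also called for balance in 45 of 305 cases (14.8%), against 758 of 7561 genes (10.0%) whose tested events were not called. Dnmt3b and Apobec3 had 37.9% and 46.4% of reads from C57BL/6J in clone 1, whereas Hnrnpf had 12.8% and 13% in the clones. A gene with few reads from one allele passes the read limit on both alleles less easily, and no test was run on these shares.

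The share of the median gene was compared by chromosome. On chromosome 3 the median gene had 58.0% of its reads from C57BL/6J in clone 1 and 52.0% in clone 2, while the 12 organ libraries ranged from 50.6% to 51.8%. That chromosome held 4.50% of all allelic reads in clone 1 and 3.81% in clone 2. On chromosome 16 clone 1 stood at 53.3% and clone 2 at 50.4%. Chromosome 6 was lower in both clones, at 45.7% and 46.1% against 49.6% to 51.1% in the organs, and 68 of its 89 balance calls (76.4%) were on the SPRET/EiJ side, against 591 of 1120 (52.8%) over all autosomes. Its called share was 21.3% of 418 genes, against 13.2% overall. The share of summed reads, which follows the most abundant genes, was also low on chromosome 8, at 47.1% and 45.5%, chromosome 11, at 46.8% and 46.2%, and chromosome 12, at 46.7% and 47.0%, where the median genes lay between 49.6% and 50.9%. Lrrc23, Cd207, Dppa3, Hnrnpf, Atg7, Zfp239, Osbpl3, Copg2 and Ppp1r9a lie on chromosome 6, and Slc9b1, Pex2 and Bglap3 on chromosome 3. Without chromosome 3, 392 events and 1077 genes were called.

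**Figure D5:**
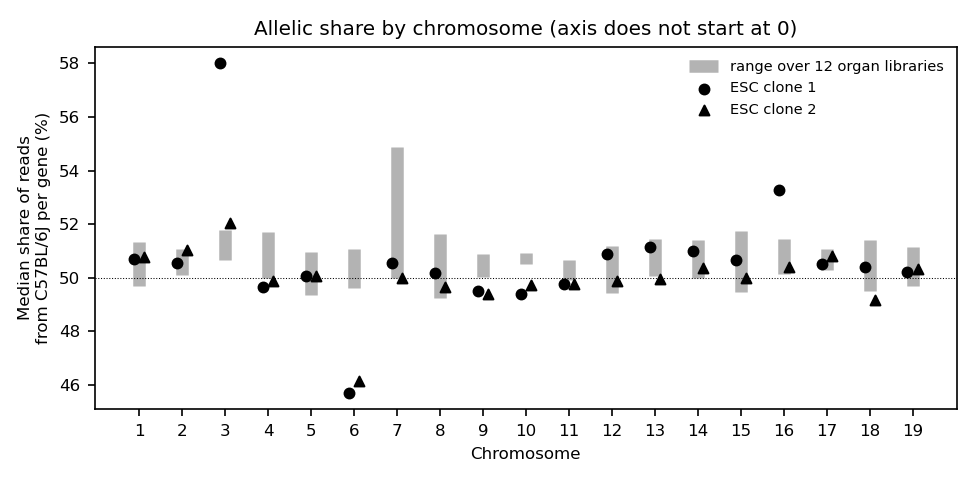
Median share of allelic junction reads from C57BL/6J per gene in percent for autosomes 1 to 19, with a circle for ESC clone 1, a triangle for ESC clone 2 and a grey bar for the range over 12 organ libraries; the axis is cut to the range of the data. Chromosome 3 of clone 1 lies at 58.0% and chromosome 6 of both clones near 46%.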

How the data were processed

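Both ESC replicates were RNA-seq libraries with paired reads. The authors aligned reads with HISAT2 2.0.1 to mm10 and to a SPRET/EiJ genome, assigned each read to the closer genome, and counted SE junctions with rMATS on Ensembl annotation. The deposited junction read counts are not normalized, and each cell lists both replicates. The authors' deposited TPM values come from all reads. The authors' p-values, FDR and inclusion levels were not used.

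List positions carry no label. Allelic sums equalled the total table's allele-assigned counts in the same position in 41829 of 41829 events, against 13 with positions crossed, so both alleles of a position come from 1 library and were paired by a clone block. Position 1 was matched to replicate 1 through the labelled TPM columns (r = 0.965 between the log2 ratios of 9164 genes). The block removes the clone difference that both alleles share. The p-values of the allele test rest on how the allelic difference varied between these 2 clones. That spread was moderated toward the spread of other events, with 9.86 prior degrees of freedom.

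Inclusion and skipping counts were fitted per event by a quasi-binomial logistic model with clone and allele. Dispersions were moderated by squeezeVar of limma 3.58.1 along read depth (spline with 4 degrees of freedom), with a floor of 1, followed by an F test and Benjamini-Hochberg adjustment over all tested events. The prior was set by events with at least 5 fitted reads of each form in every column. A first form used events with at least 10 reads of the rarer form and called 0 events. Of its 10389 events, 5048 had an empty cell, with a median dispersion of 0.00489 against 0.933 in the others. It was replaced after that result was seen, so the count of calls is not independent of the choice. The scripts were then tested on simulated data.

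Gene balance had been planned with a negative binomial count model. The list cells could not be declared as plain counts, so the quasi-binomial model was applied to summed reads per gene, centred by a trimmed mean of log ratios, with 0.5 added in ratios. RefSeq (GRCm38.p6) symbols matched 7842 of 7888 genes. Software was Python 3.11.15, pandas 2.3.3, numpy 2.4.6, scipy 1.17.1 and R 4.3.3.

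Named exons were called events of one sign in both clones, within 0.1 of the PSI from all reads, 1 per gene, ranked by the smaller clone difference (14 each way), plus called events of the gene lists, to which the limit on all reads did not apply. Named balance genes were the 8 highest each way and the imprinted lists. Genes with provisional symbols (Gm with digits, or ending in Rik) were left out of both rankings. Members, lists and tests were chosen with earlier results of these data known.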

Additional observations from a re-analysis of the deposited data

Results flagged for a closer look

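Of the events tested for a change of the allelic difference between sample types, 22 differed between ESC and cortex and 23 between ESC and DMSO fibroblasts by the interaction test. The Fn1 exon had an allelic difference that was 0.372 higher in ESC than in cortex and 0.377 higher than in fibroblasts. For Scarb1 the ESC difference minus that of cortex was −0.358, and minus that of fibroblasts −0.386. Both exons were called in both tests, which share the ESC libraries.

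The X chromosome, which the comparisons leave out, also showed allelic differences: 28 of its 922 tested events were called when fitted alone (3.04%). That fit set its own prior of the dispersion, so this share is not on the scale of the autosomal 1.19%. Its quasi-binomial test gave an adjusted p down to 4.37e-63, out of reach of the 9.86 prior degrees of freedom on the autosomes. The X calls thus make little use of the event's own spread. Armcx1 had a PSI of 0.732 and 0.840 on C57BL/6J against 0.00429 and 0.00508 on SPRET/EiJ for 1 exon, and other exons of that gene were called in the opposite direction. C57BL/6J gave 46.2% of the X-linked reads in clone 1 and 48.4% in clone 2, and X-linked genes held 2.53% and 3.75% of all allelic reads in the clones.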

How the results depend on the processing

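The number of events called between alleles was 375 and stayed within 1.5 times of it (251 to 479) with at least 10 or 50 reads, a prior without depth trend, events whose allelic and all reads agree within 0.1, 1 event per exon, a minimum difference of 0.2 (the lowest) and without chromosome 3. Leaving out events near 0 or 1 gave 749 calls of 6098 tested, by construction of a smaller family, and the first form of the prior, added after the data were seen, gave 0. The fit with no replicate block gave 7, which kept 3 of the 41 named exons. Balance calls stayed between 929 and 1233 around 1120, except for 166 by limma with no replicate block. The partner of that fit is limma with the block, which gave 929. Interaction calls against cortex numbered 11 with at least 50 reads, 0 with no replicate block and 0 to 8 without 1 library. Against fibroblasts they were 0 with no replicate block and 1 to 16 without 1 library. The cause was not tested. With 1 clone there is no residual spread, so values without a test were taken. The median absolute difference was 0.0125 without replicate 1 and 0.00352 without replicate 2 (0.0106 with both). Events past 0.1 numbered 2314 to 2749 against 1848, called events past 0.1 numbered 331 to 344, and genes past 2-fold 1343 to 1484 against 1312. No named exon and no named gene called for balance changed sign. Among imprinted genes that were not called, 3 changed sign in log2 ratio. Copg2 was at −0.19 in the event with the most reads. Snrpn was at 0.0066 with no normalization, 0.22 in the event with the most reads, 0.047 both with no replicate block and by limma with the block, and 0.0012 without chromosome 3. Zdbf2 was at 0.00012 with no normalization and 0.040 in both of those fits. The clones had opposite signs in these 3 and in H13 and Mest, so leaving out 1 clone turns the sign there. A negative binomial fit and a Wald test of the counts, both listed beforehand, were not run. Depth limits events of low counts, as a count of 0 in 24 reads allows 12.5%.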
